A study of Homo sapiens with 4 samples.

Results

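The broad domains new in senescent cells are stretches of chromatin carrying trimethylated lysine 20 of histone H4 (H4K20me3) that were at least 4000 bp long in replicative senescent cells and shared no base with an H4K20me3 peak of proliferating cells. They were chosen by their measured length in the senescent peak list and by the proliferating peak list, on chromosomes 1 to 22. By this rule 364 domains were selected out of 33510 senescent peaks on these chromosomes (1.09%) and 35535 senescent peaks in all. Their length and the absence of a proliferating peak are therefore the rule itself and not findings.

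The mark was profiled by ChIP-seq, in which DNA bound to the modified histone is recovered with an antibody and sequenced, in IMR90 cells, which are normal human lung fibroblasts that divide only a limited number of times. The PRO group held proliferating IMR90 cells at population doubling 32. The RS group held IMR90 cells at population doubling 86, which long passage had brought to growth arrest (replicative senescence). Each group was profiled with 2 antibodies, 1 from Millipore and 1 from Cell Signaling Technology, and both groups were grown in the same medium at low oxygen without any other treatment. All samples came from the same fibroblast strain, and time in culture and growth arrest cannot be told apart between the groups. A peak entered the PRO or RS list only where both antibodies found it, so each group is 1 list of positions without a height, and neither a replicate spread nor a test between groups could be given. Peak positions hold no cell type markers, so the labelled cell type was not checked here.

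H4K20me3 is written by the SUV420H enzymes onto chromatin that usually already carries trimethylated lysine 9 of histone H3 and its reader HP1. It is best known from constitutive heterochromatin, which includes the satellite DNA beside centromeres, telomere-adjacent DNA and some transposable elements. The genes of C2H2 zinc finger proteins, whose fingers are encoded one after another in a single long exon, are a known site of H3K9me3 heterochromatin in human cells.

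Several kinds of sequence lay in the domains and are shown from the reference genome (hg19, the same coordinates as GRCh37), 5' to 3', because each stands for a group described in the results. The first is the coding strand of ZNF549, at chr19:58049186-58049452 (plus strand), inside the domain chr19:58043801-58052601. It was the longest domain over a finger-encoding exon from which a stretch free of UTR could be shown. Capitals mark 3 matches to the finger pattern (C, 2 residues, C, 12 residues, H, 3 to 5 residues, H), whose starts were 84 and 87 bases apart.
ZNF549 zinc finger array: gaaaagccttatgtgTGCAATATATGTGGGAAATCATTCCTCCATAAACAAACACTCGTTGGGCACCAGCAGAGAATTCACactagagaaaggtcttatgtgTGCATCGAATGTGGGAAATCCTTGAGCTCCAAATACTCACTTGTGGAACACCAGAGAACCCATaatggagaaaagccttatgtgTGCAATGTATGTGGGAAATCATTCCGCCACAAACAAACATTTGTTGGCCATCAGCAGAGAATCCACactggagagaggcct

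The longest domain, in an intron of TTC34, held tandem units of 40 bases in part of its length. The stretch at chr1:2632619-2632858 (plus strand) holds 6 units, with every other unit in capitals, and 93.5% of its bases matched the base 1 unit further on.
TTC34 intron tandem units: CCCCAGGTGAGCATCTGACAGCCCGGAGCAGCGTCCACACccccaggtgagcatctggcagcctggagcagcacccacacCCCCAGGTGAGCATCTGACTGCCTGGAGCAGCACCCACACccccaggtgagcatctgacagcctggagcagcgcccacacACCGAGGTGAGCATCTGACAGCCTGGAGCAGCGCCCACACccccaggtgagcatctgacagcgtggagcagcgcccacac

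The second longest domain held the SNORD116 array of C/D box small nucleolar RNAs. The first and the last copy inside it are shown, at chr15:25296624-25296718 and chr15:25331674-25331765 (both plus strand), with the letters TGATGA of the C box and CTGA of the D box in capitals. All 18 copies wholly inside the domain held TGATGA in their first 20 bases and CTGA in their last 20 bases.
SNORD116-1: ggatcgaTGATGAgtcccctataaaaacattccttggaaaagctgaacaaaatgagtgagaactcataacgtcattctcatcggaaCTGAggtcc
SNORD116-19: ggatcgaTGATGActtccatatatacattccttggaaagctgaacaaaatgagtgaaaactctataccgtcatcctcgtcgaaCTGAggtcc

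The third longest domain held 22 matches to the B box, the internal promoter element of tRNA genes. The first match is shown at chr1:161410596-161410696 (minus strand) and the last at chr1:161440914-161441014 (plus strand), with the B box in capitals.
chromosome 1 array first B box: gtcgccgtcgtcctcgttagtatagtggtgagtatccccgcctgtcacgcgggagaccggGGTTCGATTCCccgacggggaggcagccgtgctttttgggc
chromosome 1 array last B box: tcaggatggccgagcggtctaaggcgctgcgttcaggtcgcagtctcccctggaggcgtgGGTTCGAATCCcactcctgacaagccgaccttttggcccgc

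The longest domain without any annotated gene, chr22:16241001-16249001, carried a repeat at a distance of 1771 bases. Its copies at chr22:16242661-16242810 and chr22:16244432-16244581 (both read on the plus strand) are shown with their identical bases in capitals, 127 of 150.
chromosome 22 gene-free domain copy 1: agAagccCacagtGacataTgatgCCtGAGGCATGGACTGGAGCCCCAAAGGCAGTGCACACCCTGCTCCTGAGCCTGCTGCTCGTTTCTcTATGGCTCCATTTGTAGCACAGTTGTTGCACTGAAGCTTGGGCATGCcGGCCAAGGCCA
chromosome 22 gene-free domain copy 2: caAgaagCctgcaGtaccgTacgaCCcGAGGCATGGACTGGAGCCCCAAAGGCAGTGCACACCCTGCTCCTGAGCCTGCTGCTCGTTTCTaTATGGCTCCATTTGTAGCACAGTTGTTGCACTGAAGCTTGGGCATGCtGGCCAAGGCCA

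The 364 domains covered 2.09 Mb, which was 5.79% of the bases in RS peaks on chromosomes 1 to 22. Their median length was 4801 bp and the longest was 51001 bp. Most were near the minimum: 186 were under 5000 bp, 90 were from 5000 to 6000 bp, 54 from 6000 to 8000 bp, and 16 were 10000 bp or longer. At the threshold, 52 domains were 4001 bp long, and 58 RS peaks without a PRO peak were 3801 bp long and fell just under it. A further 246 RS peaks of at least 4000 bp overlapped a PRO peak and were not members, and 31851 RS peaks without PRO overlap were shorter (short RS-only peaks, 30.3 Mb). These groups serve as comparisons below.

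By annotation (GENCODE), 121 domains (33.2%) overlapped a C2H2 zinc finger gene, taken as coding genes with a ZNF, ZFP, ZSCAN or ZKSCAN symbol. Another 67 (18.4%) overlapped other coding genes, 92 (25.3%) overlapped only pseudogenes or non-coding RNA genes, and 84 (23.1%) overlapped no gene. The longest domains were spread over the first 3 classes, whereas the gene-free domains reached 8001 bp at most. Among all RS peaks on these chromosomes, 7.37% overlapped a zinc finger gene, against 33.2% of the domains (exact binomial 95% interval 28.4 to 38.3%). Such intervals cover counting error over regions only, and neighbouring regions are not independent.

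**Figure D1:**
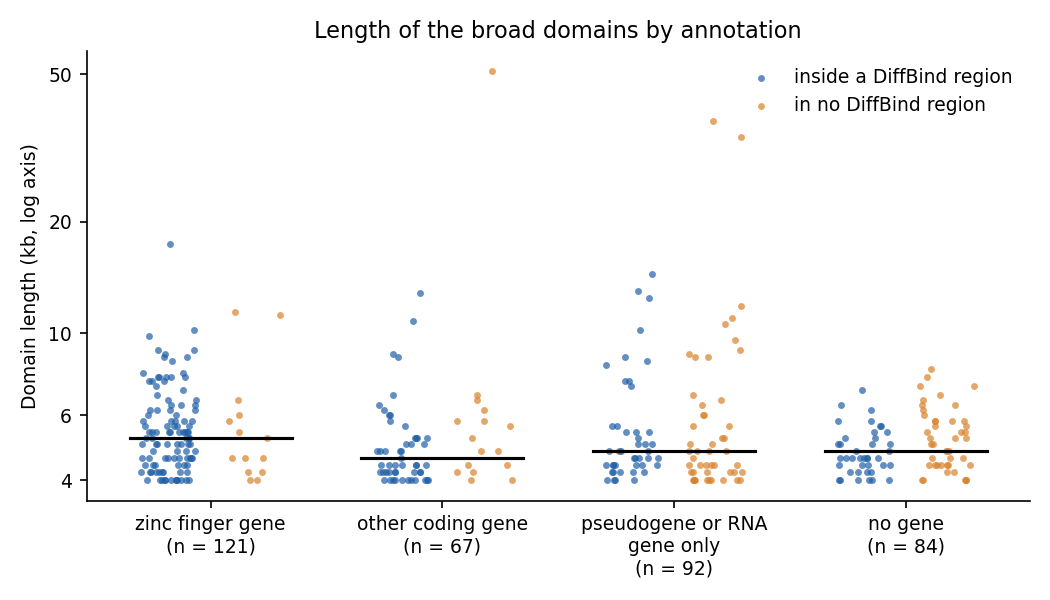
Length of each of the 364 domains in kb (log axis), by the annotation it overlapped; blue points lay inside a DiffBind region, orange points in none, and black lines are medians. The zinc finger class was mostly blue (107 of 121), while the 3 longest domains, between 33801 and 51001 bp, were all orange.

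The authors also deposited a list of regions with differential enrichment between PRO and RS cells, made with DiffBind from read counts of the same 4 samples. It comes from the same contrast as the rule, so its overlap is given only as a description, and the list holds no direction. It counts fewer regions than the study's text gives for this comparison and may be a subset or another version. Of the 364 domains, 242 (66.5%, 95% interval 61.4 to 71.3%) overlapped a DiffBind region. All 242 lay wholly inside one, as did all 15048 RS peaks on these chromosomes that overlapped one, so this is no trait of the domains. Among all RS peaks on these chromosomes 44.9% overlapped a DiffBind region. The share was 88.4% for domains over zinc finger genes (107 of 121) and 76.1% for those over other coding genes (51 of 67). It was 47.8% for domains over pseudogenes or RNA genes only (44 of 92) and 47.6% for gene-free domains (40 of 84). The TTC34, SNORD116 and B box domains were in no DiffBind region.

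Chromosome 19 held 104 of the 364 domains (28.6%; 95% interval 24.0 to 33.5%) and 2.08% of the sequenced bases. This was 186 domains per 100 Mb. Chromosome 21 followed with 34.2 domains per 100 Mb, chromosome 7 with 25.7 and chromosome 15 with 24.5. Chromosome 13 held none, although it had 969 RS peaks. On chromosome 19, 75 of the 104 domains overlapped a zinc finger gene. Away from chromosome 19, 46 of 260 domains did (17.7%). Such genes take 0.814% of the sequenced bases of chromosomes 1 to 22. Of the short RS-only peaks, 8.67% lay on chromosome 19. The broad RS peaks over PRO peaks had shares near those of the domains, with 32.1% on chromosome 19 and 30.9% over a zinc finger gene.

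**Figure D2:**
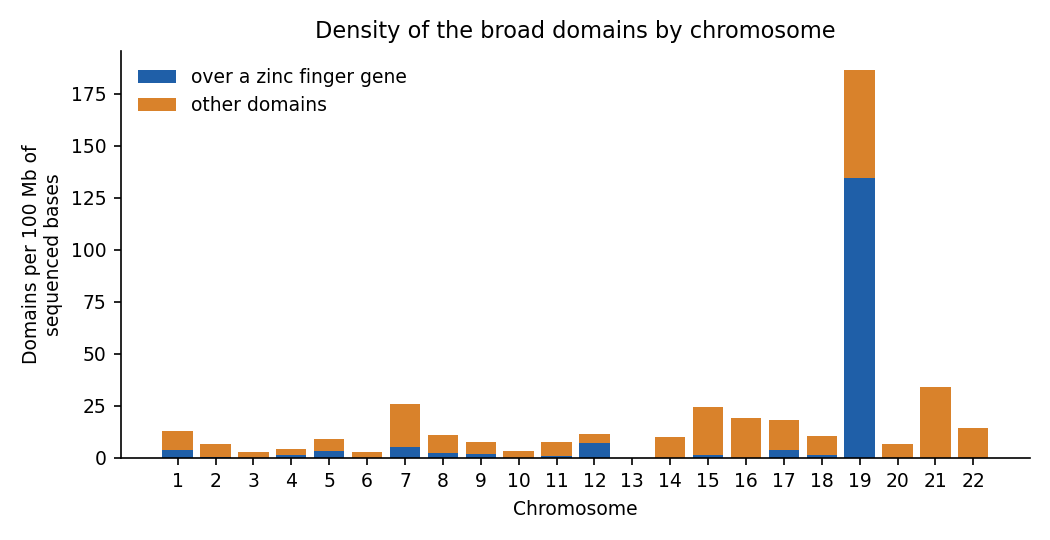
Domains per 100 Mb of sequenced bases (vertical axis) for chromosomes 1 to 22 (horizontal axis), split into domains over a zinc finger gene (blue) and other domains (orange). Chromosome 19 reached 186 per 100 Mb, chromosome 21 was next with 34.2, and chromosome 13 had no domain.

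Zinc finger genes took 28.7% of the domain bases, compared with 7.80% of the bases of short RS-only peaks, 20.7% of those of broad RS peaks over PRO peaks and 0.814% of the genome. Coding exons and UTRs made up 9.46% of domain bases against 3.89% of the genome. They made up 4.05% of the bases of short RS-only peaks and 7.98% of those of broad RS peaks over PRO peaks. Promoters, taken as 2 kb on either side of a gene start, made up 3.97% of domain bases and 2.58% of the genome, and 29 domains reached one. Their shares were 2.03% in short RS-only peaks and 6.74% in broad RS peaks over PRO peaks. Coding gene bodies as a whole were no more frequent in domains than in the genome, at 45.8% and 46.5%. In the other RS peaks they were less frequent, at 34.0% in short RS-only peaks and 26.4% in broad RS peaks over PRO peaks. Pseudogenes made up 5.35% of domain bases and 1.71% of the genome, and non-coding RNA genes 25.8% and 19.5%. In short RS-only peaks these 2 shares were 3.88% and 21.3%, and in broad RS peaks over PRO peaks 4.11% and 16.9%.

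The position along chromosomes was also uneven. Within 2 Mb of a run of undetermined bases of at least 1 Mb, which in this assembly marks centromeres and other unsequenced heterochromatin, lay 92 domains (25.3%). That zone holds 2.85% of the sequenced bases and held 9.33% of the short RS-only peaks and 32.5% of the broad RS peaks over PRO peaks. Within 2 Mb of a chromosome end lay 48 domains (13.2%), in 2.80% of the sequenced bases, as did 15.9% of the broad RS peaks over PRO peaks. The classes differed: 51.2% of gene-free domains (43 of 84) lay near a large gap, but only 6.61% of domains over zinc finger genes (8 of 121) did. Zinc finger domains lay near a chromosome end in 22 of 121 cases (18.2%). Of the 122 domains in no DiffBind region, 51.6% lay near a large gap, compared with 12.0% of the 242 domains inside one.

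**Figure D3:**
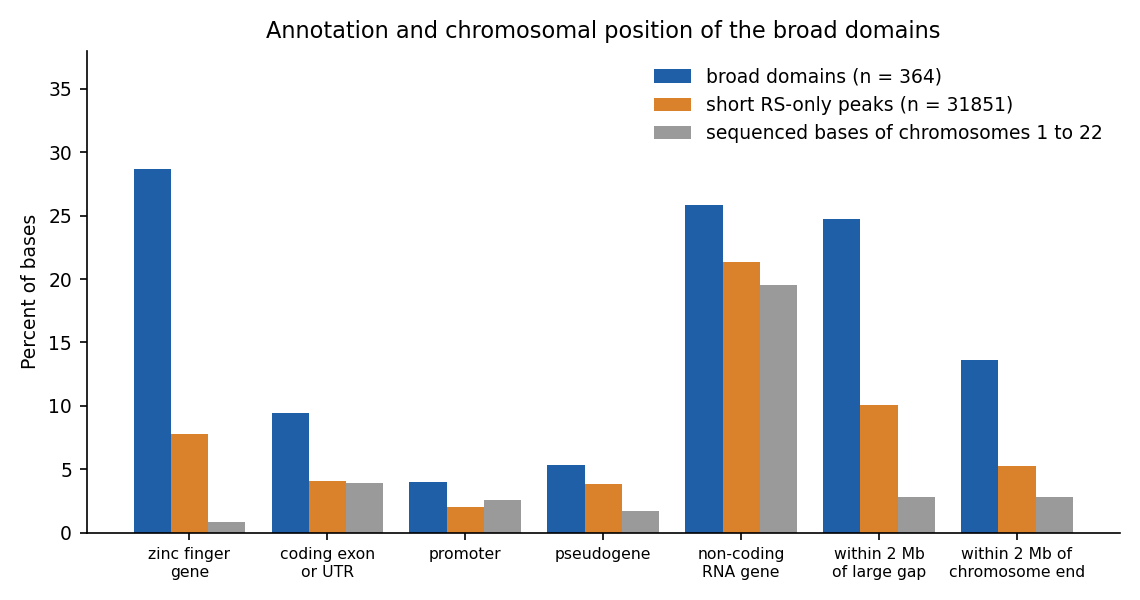
Percent of bases (vertical axis) in 5 annotation classes and 2 positional zones for the 364 domains (blue), 31851 short RS-only peaks (orange) and the sequenced bases of chromosomes 1 to 22 (grey). Zinc finger genes took 28.7% of domain bases and 0.814% of the genome, and the 2-Mb zone beside large gaps took 24.8% and 2.85%.

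Seen from the genes, 177 of 19229 coding genes on chromosomes 1 to 22 (0.920%) overlapped a domain, and 96 of them were zinc finger genes, out of 553 (17.4%). FAM90A genes, a primate family on duplicated DNA, contributed 2 of 21. Outside the families examined, 79 of 17900 coding genes (0.441%) overlapped a domain. No domain overlapped any of 53 clustered protocadherins, 414 olfactory receptors, 94 keratin-associated proteins, 26 USP17L genes, 88 ribosomal protein genes, 42 collagens or 38 kinesins. At a background of 0.441%, such an absence is close to what families of this size would give and says nothing particular about them. An RS peak of any length overlapped 20.8% of all coding genes. In these families it overlapped 45 of 53 protocadherins, 23 of 26 USP17L genes, 15 of 38 kinesins, 15 of 42 collagens, 14 of 94 keratin-associated protein genes, 45 of 414 olfactory receptors and 6 of 88 ribosomal protein genes.

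Among zinc finger genes, ZNF26 had the most bases in domains, 18403 bp in 3 domains or 39.5% of its body. ZNF585A and ZNF98 had 18203 bp each, which was 27.6% and 12.9% of their bodies. ZNF605 had a single domain of 17401 bp over 45.8% of its body, the longest domain over any zinc finger gene. This domain, chr12:133513601-133531001, also lay in CHFR, a mitotic checkpoint ubiquitin ligase gene that overlaps ZNF605. In 87.4% of its 75-base windows the sequence also occurred at another genome position, inside or outside the domain. ZNF420 (16202 bp), ZNF483 (14202 bp), ZNF577 (13803 bp), ZNF793 (13227 bp) and the readthrough gene ZNF670-ZNF695 (13203 bp) completed the zinc finger genes among the 15 coding genes with most domain bases. The unnamed genes ENSG00000267360 (23204 bp), ENSG00000196826 (18403 bp) and ENSG00000286098 (15323 bp), all on chromosome 19, shared at least some of these bases with overlapping zinc finger genes. The longest domain of ENSG00000196826, chr19:12626801-12635401 (8601 bp), overlapped no zinc finger gene.

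Within zinc finger genes the domains lay mainly in introns. Of the domain bases in the 94 such genes whose canonical transcript was read, 81.4% were outside the exons of that transcript, as were 86.9% of the gene bodies. Coding sequence made up 6.57% of the domain bases and 4.69% of the gene bodies, and 3' UTRs 11.3% and 7.75%. For position along the gene, the bodies of all 96 zinc finger genes with a domain were cut into 10 equal parts. Bases shared by overlapping genes were counted for each gene. From the start to the end of the gene, part 1 held 4.15% of the domain bases, part 5 12.8% and part 9 13.9%. Part 1, next to the promoter, was the lowest.

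The finger array itself was inside a domain in a minority of cases. In 91 genes with a domain, the exon that encodes most fingers could be located, and it overlapped a domain in 26 (28.6%) and lay wholly in one in 13. In the other 65 genes, 48 array exons overlapped an RS peak that was not a member, and 9 overlapped an RS peak that also touched a PRO peak. Array exons made up 5.46% of the domain bases in these genes and 4.03% of the gene bodies. By number of fingers, the 91 genes with a domain (median 12) equalled the 249 genes with an RS peak but no domain (median 12), and the 182 genes without an RS peak had a median of 7. Their gene bodies had median lengths of 33.3, 26.4 and 17.8 kb in that order, so longer genes also offered more bases to a domain.

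Finger patterns were also searched for in the domain sequence itself. A finger pattern in any of the 6 reading frames occurred in 38 of 364 domains (10.4%; 95% interval 7.49 to 14.0%). In genome tiles of 4801 bp, the median domain length, the share was 1.97%, although the domains were on average longer (mean 5738 bp). It was 15.4% in the broad RS peaks over PRO peaks, whose median length was 6401 bp. At least 4 patterns occurred in 25 domains (6.87%), in 13.0% of the broad RS peaks over PRO peaks and in 0.127% of tiles. The TGEKP linker is the short peptide that joins neighbouring fingers. Its DNA occurred on either strand in 29 domains (7.97%), in 12.2% of the broad RS peaks over PRO peaks and in 0.354% of tiles. Among the domains over a finger exon, ZNF433 (chr19:12120801-12128601) held 18 patterns and 12 linkers, and ZNF585A (chr19:37639201-37644401) held 21 patterns and 11 linkers. Since 1 finger with its linker spans 28 codons, an array repeats about every 84 bases. In domains over zinc finger genes, 24.1% of 8956 pairs of neighbouring identical 12-base words were a multiple of 84 bases apart. The share was 1.83% of 97729 pairs in the other domains, of which the longest TTC34 domain alone gave 21606. In the ZNF549 stretch printed above, neighbouring starts were 84 and 87 bases apart.

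**Figure D4:**
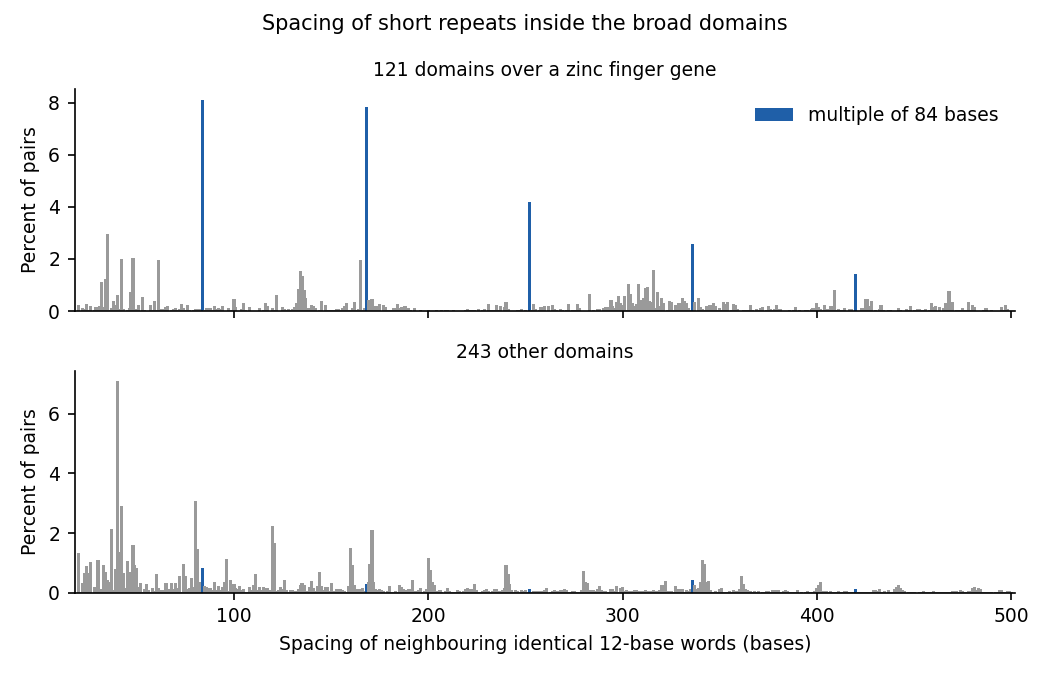
Percent of pairs (vertical axis) of neighbouring identical 12-base words by their spacing in bases (horizontal axis, 20 to 500) in the 121 domains over zinc finger genes and in the other domains; multiples of 84 are blue. The blue bars held 24.1% of the pairs in the upper panel and 1.83% in the lower. Spacings of 40 bases and its multiples stood out in the lower panel. There the longest TTC34 domain alone gave 4616 of the 6922 pairs at 40 bases.

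Outside the zinc finger family, TTC34 (tetratricopeptide repeat domain 34) had the most domain bases, 57802 bp in 2 domains and 38.6% of the body. Its longer domain, chr1:2583401-2634401, was the longest of all, with 68.8% of its 25-base words recurring inside the domain and a main spacing of 4616 bases on top of the 40-base unit. CTDP1, which encodes a phosphatase of the RNA polymerase II tail, had 13602 bp in 2 domains, both with tandem units (42 and 30 bases). MUC12, a membrane mucin gene with a repetitive coding region, had 1 domain of 12801 bp, chr7:100634801-100647601, with copies 3249 bases apart. By share of the body, FAM90A23 (100%) and FAM90A12P (99.96%) led among genes of at least 2 kb outside the zinc finger family. COMMD5 followed with 56.5%, under the chr8:146062201-146073601 domain shared with ZNF7. C19orf18 had 54.1% of its body in domains and lies among zinc finger genes, and ACRBP, the acrosin binding protein gene, had 49.1%.

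Non-coding RNA genes held some of the longest domains. SNHG14, the host transcript of the imprinted small nucleolar RNAs of chromosome 15, had 43002 bp in domains. Of its small RNAs, 18 of 28 annotated SNORD116 copies lay wholly inside the domain chr15:25295201-25332601, and 19 overlapped any RS peak. SNORD115, the neighbouring family, had 3 of 46 copies over a domain and 14 over an RS peak. No copy of either family overlapped a PRO peak. Only 1.07% of the 75-base windows of the SNORD116 domain occurred at another genome position, inside or outside the domain. KCNQ1OT1, the antisense RNA of the imprinted KCNQ1 locus, had 10202 bp in domains and 17410 bp in RS peaks, with none in PRO peaks.

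The domain chr1:161408801-161442601 was 33801 bp long, with 6.51 B box matches per 10 kb against a mean of 0.110 in genome tiles. Of its 22 matches, 9 were on the plus strand and 13 on the minus strand. Copies lay 7381 bases apart, and 9 matches had another match at that distance within 10 bases. Of its windows, 88.8% occurred at another genome position, inside or outside the domain. It was the only domain with 4 or more B boxes, which 6 of the 246 broad RS peaks over PRO peaks (2.44%) also had. A single B box or more occurred in 30 domains (8.24%), in 11.4% of the broad RS peaks over PRO peaks and in 5.02% of tiles. Without the 3 longest domains there were 0.163 matches per 10 kb.

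Tandem repeats reached beyond these loci. In the central 4001 bases, 62 of 364 domains (17.0%) held at least 50 pairs of identical 12-base words at 1 spacing, compared with 3.70% of 13417 genome tiles of that length. The share was 37.4% in the 246 broad RS peaks over PRO peaks. In 37 of the 62 domains the spacing was 20 to 70 bases, the range of minisatellites. Among tiles with such an array the count was near that share, 288 of 497. It was 38 of 92 among such broad RS peaks over PRO peaks. The strongest array was chr2:242948601-242952801, with 2345 pairs 42 bases apart, followed by chr11:119951601-119957201 with 1308 pairs 37 bases apart. By class, 31.0% of gene-free domains (26 of 84) and 9.09% of zinc finger domains (11 of 121) held such an array. A spacing of 170 to 172 bases is the unit length of the alpha satellite of centromeres. It was the main spacing, with at least 50 pairs, in 6 of the 364 domains. The same held in 9 of the 246 broad RS peaks over PRO peaks and in 28 of the 13417 tiles. GGAAT repeated 3 times in a row, the unit of a pericentromeric satellite, occurred on either strand in the centre of 6 domains (1.65%), of 22 broad RS peaks over PRO peaks (8.94%) and of 0.0447% of tiles. All 6 domains lay within 2 Mb of a large gap, among them both long domains of chromosome 10, chr10:42804601-42819001 (14401 bp) and chr10:42790401-42803401 (13001 bp).

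The remaining long domains differed in how much of their sequence recurs in the genome. The GUSBP6 domain, chr7:63552001-63564401 (12401 bp), had no window that occurred at another genome position, inside or outside the domain. The TEKT4P2 domain, chr21:9902801-9914601 (11801 bp), had 69.5% such windows, and the LINC01297 domain, chr14:19970801-19981801 (11001 bp), had 81.8%. The LINC01297 domain had the same spacings, 1771 and 297 bases, as the gene-free domain of chromosome 22 whose copies are printed above. The ZNF793 domain, chr19:37987201-37998401 (11201 bp), had 1.79%, and only 5.01% of it lay inside the gene body. Over all domains, 187 (51.4%) had at least 1 window of 75 bases that occurred at another genome position, and 19.5% of windows did. Copies inside the same region were counted. The share of windows was 10.3% in short RS-only peaks and 43.3% in broad RS peaks over PRO peaks. DiffBind regions held 75.7% of the 177 domains without such a window, 56.9% of the 181 domains with some, and 5 of the 6 domains in which every window recurred. Reads from identical copies cannot be placed uniquely, and their part in the lengths and overlaps was not tested.

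Other RS peaks lay close to many domains. Another RS peak lay within 1 kb of 251 domains (69.0%), with a median gap of 599 bp, compared with 30.1% and 6599 bp for short RS-only peaks. RS peaks covered 32.3% of the bases within 10 kb of a domain, 22.1% from 10 to 50 kb and 15.7% from 50 to 200 kb. Around short RS-only peaks these shares were 8.72, 6.13 and 4.60%, and around broad RS peaks over PRO peaks they were higher than around the domains at all 3 distances, from 45.6% within 10 kb to 17.5% at 50 to 200 kb. RS peaks covered 1.34% of chromosomes 1 to 22. The median gap to the nearest PRO peak was 47.0 kb. In all, 92 domains were within 10 kb of a PRO peak, which the rule allowed, and 34 were more than 1 Mb away.

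**Figure D5:**
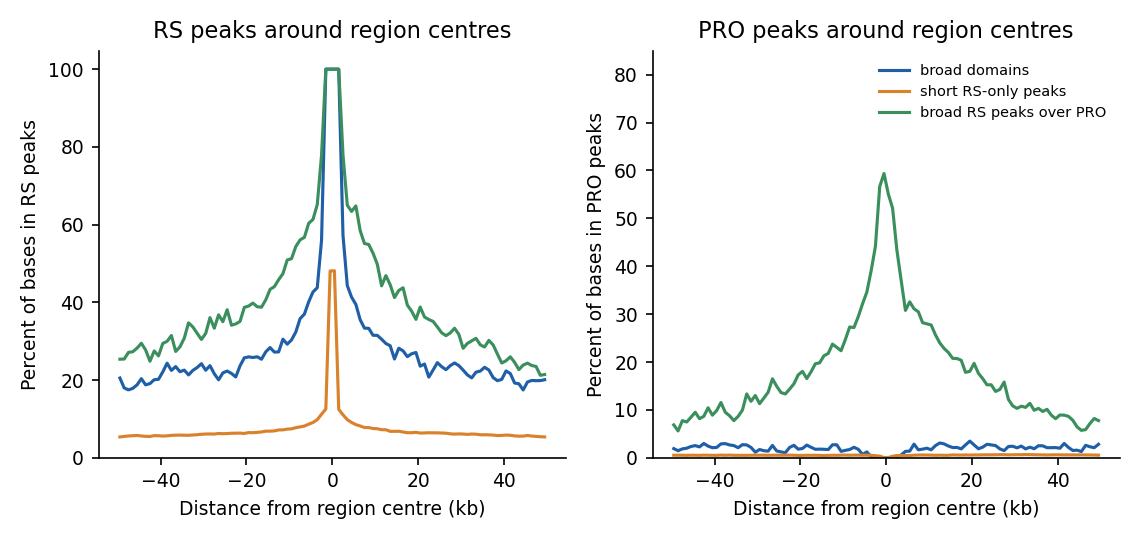
Percent of bases in RS peaks (left) and in PRO peaks (right) by distance in kb from the centre of the domains (blue), short RS-only peaks (orange) and broad RS peaks over PRO peaks (green), in bins of 1 kb. RS coverage around domains fell to 17.5% in its lowest bin and was about 20.5% at the left edge. It stayed above that of short RS-only peaks, which was 5.37% at that edge. The absence of PRO peaks at the blue and orange centres is set by the rule.

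With domains up to 100 kb apart joined into runs, 209 of 364 (57.4%) fell into 67 runs of 2 or more, and the largest run held 10 domains. The run with most domain bases was the TTC34 pair, with 57802 bp at chr1:2583401-2692001. The next was chr7:63485001-63795601, with 9 domains, 56609 bp in domains and 41.9% of its bases in RS peaks. All 4 zinc finger genes of that run overlapped a domain, and it held no PRO peak. The run chr12:133513601-133670201 held 7 domains, 53007 bp in domains and 58.9% of its bases in RS peaks, and all 4 of its zinc finger genes overlapped a domain. In contrast to the run on chromosome 7, PRO peaks covered 5605 bp of it.

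At a background of 0.920% of coding genes, none of 13 senescence and cell cycle genes, such as CDKN2A (p16 and ARF) and LMNB1 (lamin B1), overlapped a domain, and neither did any of 11 genes of secreted factors, such as IL6, or of 16 genes of H4K20 and H3K9 methylation, such as KMT5C (SUV420H2). With so few genes a count of 0 is close to that background and says nothing particular about them. RS peaks outside the domains covered 5605 bp of RB1, 5804 bp of EHMT1 and 401 bp of SETDB1. PRO peaks covered 1401 bp of RB1, 1801 bp of EHMT1, 1201 bp of HMGA2 and 401 bp of MKI67.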

How the data were processed

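H4K20me3 ChIP-seq libraries of PRO and RS IMR90 cells, 2 antibodies each, were processed by the authors. Per the labels and the methods, reads were trimmed with Trim Galore 0.3.0 and aligned to hg19 with Bowtie2 2.1.0. Domains were called with SICER 1.1 in windows of 200 bp against a ChIP of total histone H4, and the domains of both antibodies were intersected within a group. The deposited lists hold start and end positions in bases, with no count, score or p-value, so read depth was not used here. The paper's supplement lists read counts for these libraries, which were uneven in depth and in duplicate reads. The paper also states that the peaks of the 2 antibodies overlapped much more in RS than in PRO cells. The bearing of either on the PRO and RS lists was not tested. The deposited list of DiffBind 1.8.3 regions has no direction either. The methods name 2 count models for it, and which of them made the list was not settled.

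Positions were read as half-open intervals, and lengths are end minus start. Overlap means 1 base or more. Genes were taken from GENCODE 44 lifted to GRCh37, and sequence from GRCh37. Zinc finger patterns, linkers, B boxes, identical words of 12 and 25 bases and 75-base windows taken every 200 bp were searched by Python 3.11.15 scripts (pandas 2.3.3, pysam 0.24.0), checked on simulated intervals and sequences. Tiles of the genome are fixed, contiguous windows, of which every fiftieth was used for tandem repeats.

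No test was run: 1 merged list per group has no replicates, and the samples of a group differ by antibody. The members, gene lists and alternatives were chosen with earlier results of these data known, and the tandem repeat, satellite and chromosome position measures were added after values were seen. Regions named are the 12 longest domains, the longest of each annotation class and the 3 runs with most domain bases. Genes named are the 15 coding genes with most bases in domains, the 5 genes of at least 2 kb outside the zinc finger family with the largest share in domains, and members of the listed small sets. The domains of ZNF433, ZNF585A, ENSG00000196826, chromosomes 2 and 11, and the SNORD115, SNHG14 and KCNQ1OT1 genes were chosen after their values were seen. Alternatives changed the length minimum, the distance to PRO peaks, joining of RS peaks, repeated sequence, chromosome 19 and the reading of interval ends.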

Additional observations from a re-analysis of the deposited data

How the results depend on the processing

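The number of domains, 364, changed to 837 with a length minimum of 3000 bp, to 88 with 6000 bp, to 640 when RS peaks up to 400 bp apart were joined first, and to 177 when only domains without a repeated 75-base window were kept. The share over a zinc finger gene, 33.2%, moved to 25.6% with 3000 bp, 42.0% with 6000 bp, 27.2% without a PRO peak within 10 kb and 17.7% without chromosome 19. The share on chromosome 19, 28.6%, moved to 23.9% without a PRO peak within 10 kb. The share over a DiffBind region, 66.5%, moved to 75.7% without repeated windows. The share with a finger pattern, 10.4%, moved to 14.8% with 6000 bp. Each of these shares lay outside the exact 95% interval of its main value; the cause was not tested. Of 34 alternative values, the other 23 lay within that interval or, for the number of domains, within 1.5 times. Longer regions have more bases with which to meet a gene or pattern. Leaving out each antibody could not be run because no list per antibody was used here. No paired analysis was possible because the antibodies were merged into 1 list per group and no result comes from a test.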

Other observations

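Chromosome X was outside the rule. By the same length and overlap criteria, 9 of its 1880 RS peaks would have met it, the longest of them 6401 bp, and 4 RS peaks of at least 4000 bp on that chromosome overlapped a PRO peak.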
